A study of Mus musculus with 8 samples.

Results

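A set of 10 genes of the Notch pathway was followed in the aorta of ApoE-/- and WT mice: the 4 receptors Notch1, Notch2, Notch3 and Notch4, the 3 ligands Jag1, Jag2 and Dll4, and the 3 targets Hes1, Hey1 and Heyl. They were chosen by name and function, and are 10 of the 21859 genes in the count tables. All 10 passed the filter on low counts, which kept 15077 genes for testing. RNA came from the aortas of 4 male ApoE knockout mice (ApoE-/-), which lack the lipoprotein ligand apolipoprotein E in every cell and develop atherosclerosis, and of 4 male WT mice, all C57BL/6, 40 weeks old and kept on a normal diet. Each library is 1 mouse, and no mouse had another treatment. The whole vessel was taken, so endothelium, smooth muscle, adventitia and any plaque were measured together.

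Notch receptors are membrane proteins that bind ligands on a neighbouring cell. Binding exposes the receptor to ADAM metalloproteases and then to gamma-secretase, and the released intracellular part enters the nucleus, joins the DNA-binding protein RBPJ and Mastermind-like proteins, and switches on genes such as those of the Hes and Hey repressors. In arteries, Dll4, Jag1, Notch1 and Notch4 are known from endothelium, where the pathway takes part in arterial identity, while Notch3, Notch2, Jag1 and Heyl are known from smooth muscle and pericytes.

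In ApoE-/- libraries 23240995 to 23940156 read pairs were counted on genes and in WT libraries 18375898 to 21664598, without overlap (exact permutation test over 70 assignments, two-sided, p = 0.0286, the lowest value it allows). Apoe itself had 14.7 to 36.3 CPM (read pairs scaled to the size of the library) in ApoE-/- mice and 536 to 857 CPM in WT mice, so every library had the level of its labelled genotype. ApoE-/- replicate 1 stood apart. Its log2 CPM correlated with the other ApoE-/- libraries at 0.849 to 0.903 across genes, against 0.951 to 0.971 among those 3 and 0.979 to 0.989 among WT libraries. Where leaving out this mouse moved a gene's log2 fold change given below by over 1.5 times, both values are given. The values below are CPM after TMM normalization, a scaling for library composition, and a log2 fold change is ApoE-/- over WT with its standard error (SE).

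None of the 10 genes passed edgeR's quasi-likelihood test between genotypes (Benjamini-Hochberg adjusted p under 0.05), where 0.464% of all genes tested passed. DESeq2 called 0 of the 10, against 4.97% of all genes, and limma-voom 0 of the 10, against 0.192%. At an unadjusted p under 0.05 there were 2 of the 10, Notch4 and Jag2, both lower in ApoE-/- mice, where 11.4% of all genes reached that level and 4.17% did so with a lower value. The log2 fold change was below 0 for 8 of the 10 genes (9 in limma-voom, where Heyl changed sign), against 42% of all genes, and the median was −0.19 against 0.05 over all genes tested. For 0 of the 10 did the 4 ApoE-/- values lie entirely above or below the 4 WT values, against 8.71% of all genes. In whole tissue, fewer cells of a type and less RNA per cell cannot be told apart. The plot of CPM by mouse shows how far the genotypes overlapped.

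**Figure D1:**
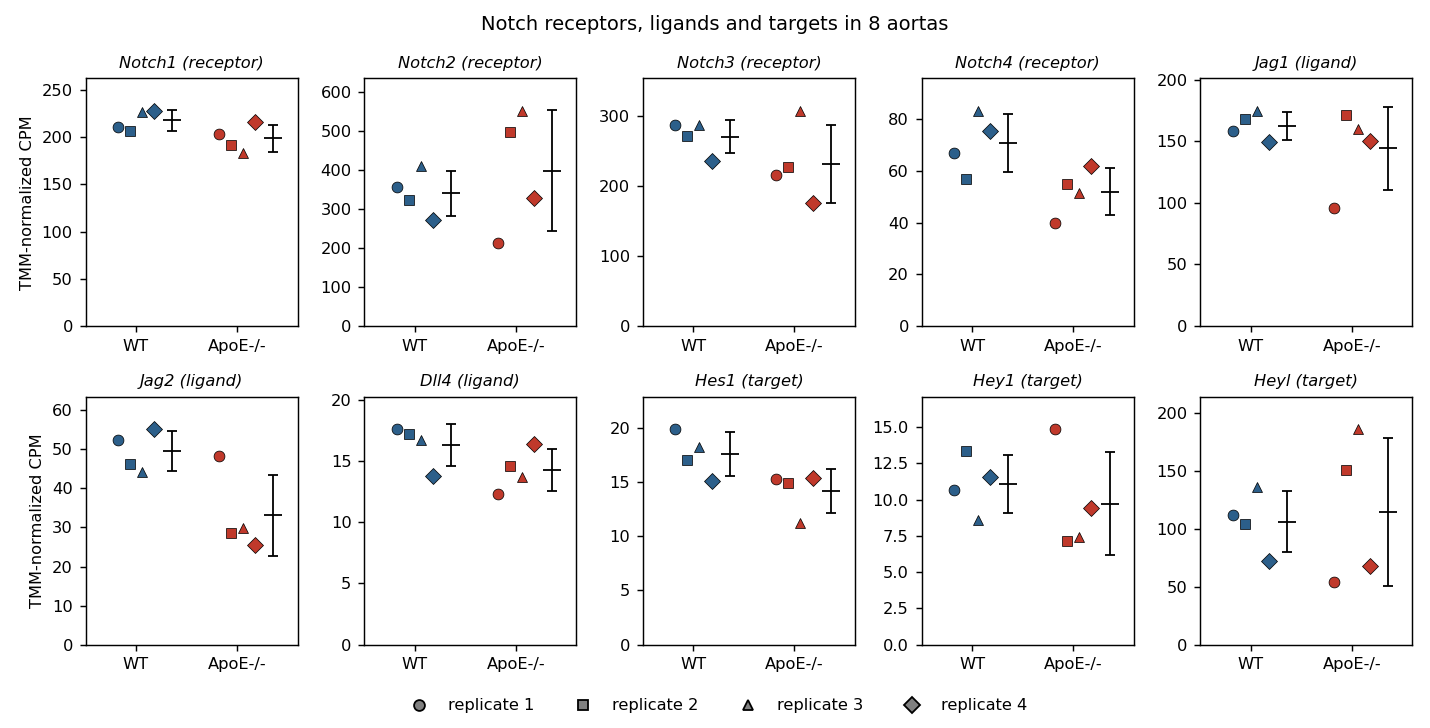
TMM-normalized CPM of the 10 Notch genes in each of 8 aortas (y axes from 0, 1 panel per gene). Blue symbols are WT and red symbols ApoE-/- mice, the symbol shape gives the replicate number, and the bar is the mean ± SD of 4 mice. The genotypes overlap in all 10 panels, and ApoE-/- replicate 1 (circle) lies away from the other 3 ApoE-/- mice for Notch2, Notch4, Jag1, Jag2 and Hey1.

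Among the receptors, Notch1 (ENSMUSG00000026923.15, chr2:26457903-26516663, minus strand, GRCm38), the receptor required for arterial endothelial identity, was the steadiest. In ApoE-/- replicates 1 to 4 it had 203, 192, 184 and 217 CPM, and in WT replicates 1 to 4 it had 211, 206, 227 and 228 CPM. Only ApoE-/- replicate 4 reached into the WT range. Its log2 fold change was −0.13 (SE 0.10, 95% interval −0.37 to 0.10, adjusted p in edgeR = 0.748).

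Notch2 (ENSMUSG00000027878.11, chr3:98013527-98150361, plus strand), which smooth muscle and monocytes carry, varied most among the receptors. ApoE-/- replicates 1 to 4 had 214, 498, 553 and 330 CPM, and WT replicates 357, 324, 411 and 272 CPM. ApoE-/- replicates 2 and 3 lay above every WT mouse and ApoE-/- replicate 1 below every WT mouse. The means were 399 ± 156 and 341 ± 58.1 CPM (SD, n = 4 each), and the log2 fold change was 0.23 (SE 0.30, 95% interval −0.46 to 0.91, adjusted p in edgeR = 0.847).

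Notch3 (ENSMUSG00000038146.8, chr17:32120820-32166852, minus strand), the receptor of mural cells, had 216, 226, 307 and 175 CPM in ApoE-/- replicates 1 to 4 and 286, 271, 286 and 236 CPM in WT replicates. ApoE-/- replicate 3 was the highest of all 8 mice, while the other 3 ApoE-/- mice lay below every WT mouse. Between genotypes the log2 fold change was −0.22 (SE 0.18, adjusted p in edgeR = 0.760).

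Notch4 (ENSMUSG00000015468.14, chr17:34564268-34588503, plus strand), a receptor largely restricted to endothelium, had 39.9, 55.0, 51.5 and 61.8 CPM in ApoE-/- replicates and 67.1, 57.1, 83.3 and 75.4 CPM in WT replicates. Only ApoE-/- replicate 4 exceeded a WT mouse, replicate 2. The mean was 52.0 ± 9.14 CPM in ApoE-/- and 70.7 ± 11.3 CPM in WT mice (SD, n = 4 each), with a log2 fold change of −0.44 (SE 0.17, 95% interval −0.82 to −0.06). The edgeR adjusted p was 0.334, and over the fits that left out 1 mouse the log2 fold change ran from −0.54 to −0.33 with no call.

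Of the ligands, Jag1 (ENSMUSG00000027276.7, chr2:137081456-137116644, minus strand), expressed by endothelium and smooth muscle, had 95.6, 171, 160 and 150 CPM in ApoE-/- replicates and 158, 168, 175 and 149 CPM in WT replicates. Apart from ApoE-/- replicate 1, which was lowest, the ApoE-/- mice lay inside the WT range. Its log2 fold change came to −0.17 (SE 0.18, adjusted p in edgeR = 0.813) with all mice and −0.01 without that replicate.

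Jag2 (ENSMUSG00000002799.6, chr12:112907819-112929776, minus strand), a second Jagged ligand, had 48.4, 28.6, 29.8 and 25.5 CPM in ApoE-/- replicates 1 to 4 and 52.3, 46.4, 44.2 and 55.2 CPM in WT replicates 1 to 4. ApoE-/- replicate 1 lay in the WT range, and the other 3 ApoE-/- mice lay far below every WT mouse. Counts behind these values ran from 588 to 1192 read pairs. With all mice the log2 fold change was −0.58 (SE 0.21, 95% interval −1.05 to −0.11), with adjusted p = 0.295 by edgeR's quasi-likelihood test and 0.116 by DESeq2.

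Without ApoE-/- replicate 1, Jag2 was the 1 gene of the 10 to be called, by both tools. The mean of the remaining ApoE-/- mice was 28.0 ± 2.22 CPM (SD, n = 3) against 49.5 ± 5.10 CPM (SD, n = 4) in WT mice. The log2 fold change was then −0.82 (SE 0.12), with an edgeR adjusted p of 0.0126 and a DESeq2 adjusted p of 9.67e-08. Over the 8 fits that each left out 1 mouse, the edgeR adjusted p of Jag2 ran from 0.0126 to 0.620 and its log2 fold change from −0.82 to −0.48. In that fit edgeR called 3.91% of all genes, 1.16% with a lower value, and DESeq2 called 10.3%, 4.56% with a lower value. Leaving out this mouse makes the genotypes separate for 7.44% of genes in the lower direction. ApoE-/- replicate 1 also differed from the other ApoE-/- mice in the cardiomyocyte list (mean log2 CPM over 9 genes), at 4.21 against 2.09 to 2.33, in the contractile smooth muscle list, at 7.56 against 8.56 to 9.30, in the fibroblast list, at 7.75 against 8.64 to 9.18, and in the pericyte list, at 6.71 against 7.43 to 7.80. It lay outside them also in the macrophage list, at 4.72 against 5.26 to 6.32, in the mesothelium list, at 0.88 against −0.91 to −0.25, and by less in the endothelium list, at 6.998 against 7.06 to 7.33. The lymphatic endothelium list was at 5.18 in it, inside the 4.76 to 5.57 of the others. The part of tissue content in the Jag2 values was not tested.

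Dll4 (ENSMUSG00000027314.6, chr2:119325784-119335962, plus strand), the arterial endothelial ligand, had 12.3, 14.6, 13.7 and 16.4 CPM in ApoE-/- replicates and 17.6, 17.2, 16.7 and 13.8 CPM in WT replicates. All ApoE-/- mice were below WT replicates 1 to 3, but WT replicate 4 lay among them. Between genotypes the log2 fold change was −0.20 (SE 0.13, 95% interval −0.50 to 0.10, adjusted p in edgeR = 0.691).

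Among the targets, Hes1 (ENSMUSG00000022528.8, chr16:30064384-30067796, plus strand), a basic helix-loop-helix repressor induced by Notch in many cell types, had 15.3, 14.9, 11.2 and 15.4 CPM in ApoE-/- replicates and 19.9, 17.0, 18.2 and 15.1 CPM in WT replicates. ApoE-/- replicate 3 was the lowest of all, and the genotypes met only at WT replicate 4. Its log2 fold change came to −0.31 (SE 0.14, 95% interval −0.64 to 0.02, adjusted p in edgeR = 0.488).

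Hey1 (ENSMUSG00000040289.8, chr3:8663359-8667256, minus strand), a repressor of the Hey family in arterial endothelium, had 14.9, 7.17, 7.45 and 9.42 CPM in ApoE-/- replicates and 10.7, 13.4, 8.59 and 11.6 CPM in WT replicates. ApoE-/- replicate 1 was the highest of the 8 mice, and replicates 2 and 3 were the lowest. The log2 fold change was −0.19 (SE 0.26, adjusted p in edgeR = 0.857) with all mice and −0.46 (SE 0.18, adjusted p in edgeR = 0.229) without replicate 1. Hey1 rested on the fewest read pairs of the 10 genes, 155 to 366 in a library.

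Heyl (ENSMUSG00000032744.4, chr4:123233556-123249875, plus strand), the Hey family member known from mural cells, had the widest spread. ApoE-/- replicates 1 to 4 had 53.9, 151, 186 and 67.6 CPM and WT replicates 112, 104, 136 and 72.1 CPM. Replicates 2 and 3 of the ApoE-/- mice lay above all WT mice and replicates 1 and 4 below all of them. Between genotypes the log2 fold change was 0.11 (SE 0.41, 95% interval −0.82 to 1.05, adjusted p in edgeR = 0.957), and it changed sign between fits, with −0.22 when ApoE-/- replicate 3 was left out and 0.35 without ApoE-/- replicate 1.

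**Figure D2:**
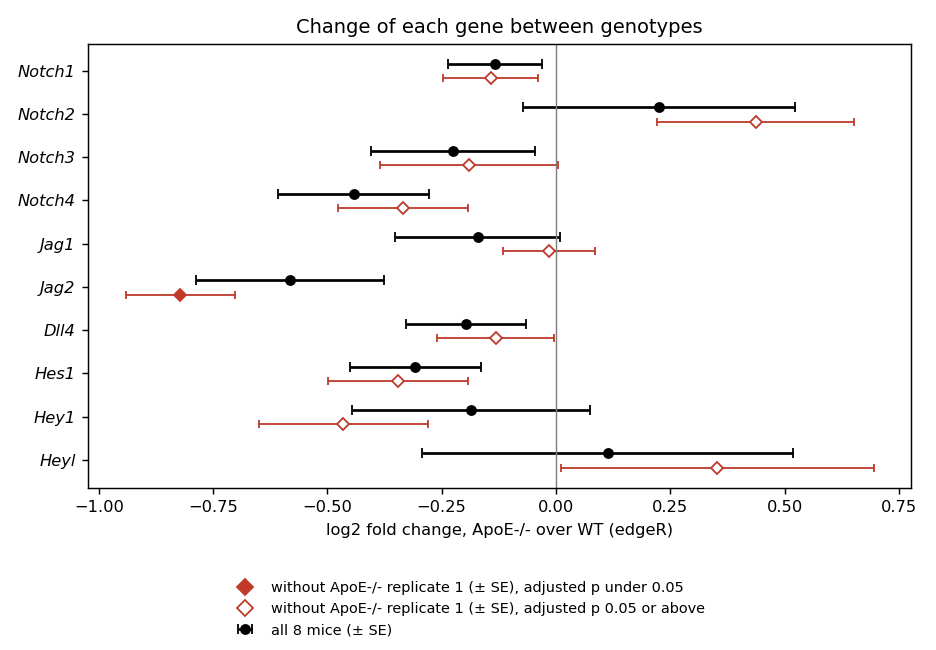
Log2 fold change of each of the 10 genes, ApoE-/- over WT (x axis), from edgeR, with bars of ± 1 SE. Black circles use all 8 mice, and red diamonds leave out ApoE-/- replicate 1 (filled where the adjusted p is under 0.05). Jag2 moves from −0.58 to −0.82 and is the only filled diamond, while Notch2 moves from 0.23 to 0.44.

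The plot of log2 fold changes sets the fits with and without ApoE-/- replicate 1 side by side. Without it Notch2 had a log2 fold change of 0.44 (SE 0.21, adjusted p in edgeR = 0.328). Leaving out other mice also separated genotypes for single genes, each lower in ApoE-/- mice. These were Notch3 without ApoE-/- replicate 3 (as for 4.57% of all genes), Notch1 and Notch4 without ApoE-/- replicate 4 (5.98%), Notch4 without WT replicate 2 (4.5%), and Dll4 and Hes1 without WT replicate 4 (4.09%). With upper-quartile factors and all mice, Hes1 was separate, as were 4.09% of all genes in that direction. None of these was called.

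Levels of different genes were compared per length, as CPM divided by the length of the exons in kilobases (RPKM). In WT mice the order of the means was Notch3 (33.4), Notch2 (31.6), Jag1 (27.9), Heyl (20.7), Notch1 (15.3), Notch4 (8.77), Hes1 (8.62), Jag2 (7.11), Dll4 (4.23) and Hey1 (3.39). The genes known from mural cells were thus at the top, and the endothelial ligand Dll4 and the target Hey1 at the bottom. Neighbours in this order were parted by more than their spread in only a pair of places. Notch1 (14.5 to 16.03 RPKM over the WT mice) lay above Notch4 (7.08 to 10.3 RPKM), and Jag2 (6.35 to 7.92 RPKM) above Dll4 (3.58 to 4.56 RPKM), while all other neighbours overlapped. In ApoE-/- mice Notch2 (37.0 RPKM) stood before Notch3 (28.6 RPKM) and Hes1 (6.96 RPKM) before Notch4 (6.45 RPKM), with overlap in each pair. There, only Notch1 (12.9 to 15.2 RPKM) was parted from its next neighbour, Hes1 (5.496 to 7.54 RPKM), because Jag2 (3.66 to 6.95 RPKM) overlapped Dll4 (3.19 to 4.25 RPKM).

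**Figure D3:**
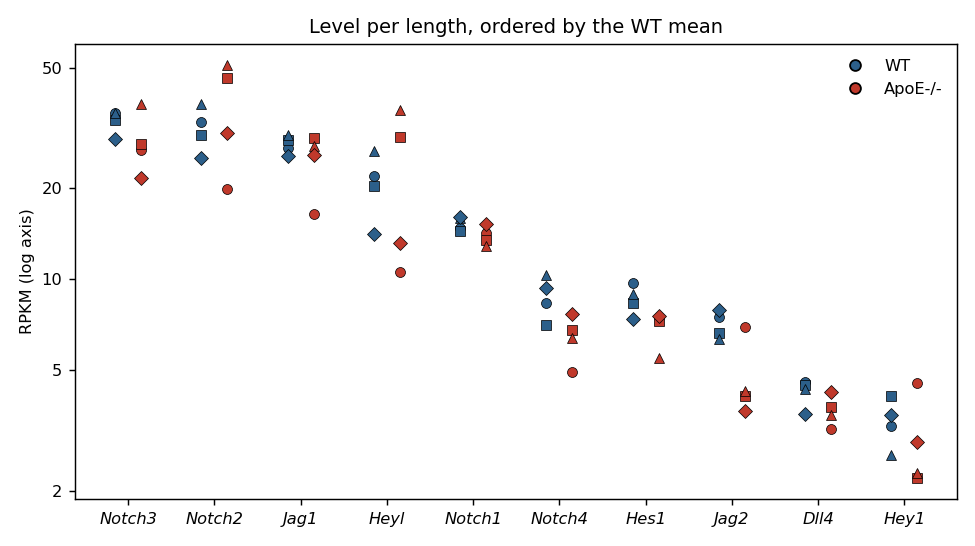
RPKM of the 10 genes in each aorta on a log axis, ordered by the WT mean. Blue symbols are WT and red symbols ApoE-/- mice, with the symbol shape giving the replicate as in the plot of CPM by mouse. The WT means run from 33.4 for Notch3 to 3.39 for Hey1, and Heyl and Notch2 spread widest in ApoE-/- mice.

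Shares within a role put this on a scale that does not depend on the library size. Notch2 made up 30.2% to 48.9% of the summed receptor RPKM in ApoE-/- mice and 31.6% to 38.2% in WT mice. Jag2 made up 26.2% of the ligands in ApoE-/- replicate 1, 10.9% to 12.1% in the other ApoE-/- mice and 15.6% to 21.4% in WT mice. Of the targets, Heyl took 46.6% to 82.4% in ApoE-/- mice and 56.3% to 69.6% in WT mice. The WT mice kept to a narrower range than the ApoE-/- mice for each of these shares.

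The rest of the pathway was read from a list of 45 genes by role, of which 42 were tested. edgeR called 0 of the 42, 3 had an unadjusted p under 0.05 (11.4% over all genes), and limma-voom called 0. The median log2 fold change was 0.03, with 25 above and 17 below 0. DESeq2 called 3 of the 42 (4.97% over all genes), Dll1 and Nrarp lower (1.75% over all genes) and Dtx4 higher (3.23%) in ApoE-/- mice, and edgeR called the same 3 once ApoE-/- replicate 1 was left out, a fit that called 3.91% of all genes. These 3 of the 42 were also those whose genotypes did not overlap, as for 8.71% of all genes. Without ApoE-/- replicate 1 the genotypes were separate for 9 of the 42, Dtx4, Rbpj, Adam10, Adam17 and Pofut1 higher (9.82% of all genes) and Dll1, Nrarp, Neurl1b and Dtx1 lower (7.44%). On leaving out 1 mouse at a time, their adjusted p in edgeR ran from 0.0426 to 0.279 for Dll1, from 0.0187 to 0.280 for Nrarp and from 0.0473 to 0.228 for Dtx4, each under 0.05 in 1 of 8 fits.

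Dll1, a Delta ligand that activates Notch2 in the making of marginal zone B cells, had 12.2, 21.5, 15.3 and 18.5 CPM in ApoE-/- replicates and 27.7, 28.3, 29.8 and 27.4 CPM in WT replicates. Every ApoE-/- mouse was below every WT mouse. Its log2 fold change came to −0.74 (SE 0.17), with adjusted p = 0.103 by edgeR's quasi-likelihood test, 0.00582 by DESeq2, and 0.0426 by edgeR without ApoE-/- replicate 1. With Dll1 beside them, all 5 tested ligands of the pathway, Jag1, Jag2, Dll4, Dll1 and the non-canonical Dlk1, had a log2 fold change below 0. Dlk1 was at −0.91 (SE 0.51, adjusted p in edgeR = 0.597) from 13 to 72 read pairs a library.

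Nrarp, a direct target that feeds back to limit Notch signalling, had 15.1, 10.3, 10.9 and 9.81 CPM in ApoE-/- replicates and 21.4, 22.9, 15.3 and 22.1 CPM in WT replicates. The genotypes stood just apart, at ApoE-/- replicate 1 and WT replicate 3. Its log2 fold change was −0.82 (SE 0.19), with adjusted p = 0.100 by edgeR's quasi-likelihood test, 0.00274 by DESeq2 and 0.0187 by edgeR without ApoE-/- replicate 1. Hey2, a target in arterial endothelium and smooth muscle, had a log2 fold change of −0.22 (SE 0.26, adjusted p in edgeR = 0.833), and Efnb2, an arterial marker, 0.05 (SE 0.23). Without ApoE-/- replicate 1 these were −0.06 (SE 0.23) and 0.23 (SE 0.15). Of 6 tested targets, 4 were thus below 0, and none was called by edgeR with all mice.

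Dtx4, a Deltex ubiquitin ligase that acts on Notch receptors, went the other way. ApoE-/- replicates 1 to 4 had 58.3, 44.0, 36.1 and 61.6 CPM and WT replicates 30.1, 25.9, 24.2 and 26.7 CPM, without overlap. The log2 fold change was 0.90 (SE 0.18), with adjusted p = 0.0693 by edgeR's quasi-likelihood test, 0.000371 by DESeq2 and 0.0473 by edgeR without ApoE-/- replicate 1. Its relatives Dtx2 (−0.11, SE 0.13) and Dtx3 (0.02, SE 0.17) had log2 fold changes within 1 SE of 0. Dtx1 was at 0.31 (SE 0.41) with all mice, which rests on 24.3 CPM in ApoE-/- replicate 1 against 7.19 to 7.87 CPM in the other ApoE-/- mice and 8.90 to 10.3 CPM in WT mice. Without that replicate it was at −0.33 (SE 0.13, adjusted p in edgeR = 0.222). Numbl, an inhibitor of the receptor, was at 0.20 (SE 0.16). Without that replicate Dtx3 was at 0.07 and Numbl at 0.13.

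Apart from Dtx4, the machinery between ligand and target held no gene called by edgeR or DESeq2 with all mice. The 3 proteases Adam10 (log2 fold change 0.19, SE 0.11), Adam17 (0.20, SE 0.13) and Furin (0.06, SE 0.15), which cut the receptor outside the membrane or during its maturation, were above 0, and none was called. Furin was at 0.16 (SE 0.13) without ApoE-/- replicate 1. The 7 gamma-secretase subunits, which cut it inside the membrane, ran from −0.16 for Aph1b (SE 0.14) to 0.12 for Psen2 (SE 0.13), which was at 0.07 without that mouse, when the highest was Aph1c at 0.19 (SE 0.16). Of the 5 enzymes that add sugars to the receptor, Mfng (−0.48, SE 0.25) and Lfng (−0.31, SE 0.19), of the Fringe family, were lowest, and the others lay from 0.10 to 0.13 (0.09 to 0.20 without that mouse). The 9 nuclear cofactors ran from −0.20 for Snw1 (SE 0.11) to 0.22 for the DNA-binding partner Rbpj (SE 0.18), with Ep300 at −0.18 (SE 0.14). Without ApoE-/- replicate 1 Rbpj was at 0.38 (SE 0.12), with an adjusted p of 0.124 in edgeR and 0.0580 in DESeq2, and Ep300 at −0.10 (SE 0.12). Of the 4 ubiquitin ligases that act on ligands, Neurl1b was at −0.32 (SE 0.18) and Neurl1a at 0.86 (SE 0.62). The latter value rests on ApoE-/- replicate 1, which had 798 of its read pairs, and was −0.04 without that mouse. The ligands Dll3 and Dlk2 and the target Hes5 were not tested, with at most 15 read pairs in any library.

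**Figure D4:**
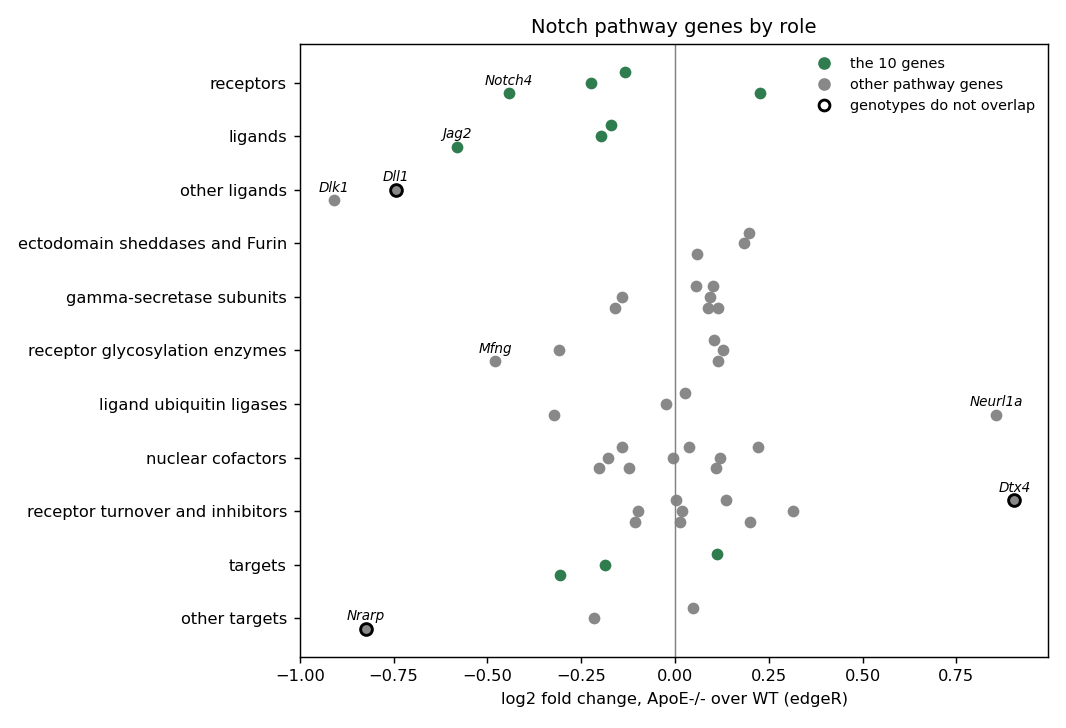
Log2 fold change, ApoE-/- over WT (x axis), of the 10 genes (green) and the 42 other tested genes of the pathway (grey), sorted by role in rows, from edgeR with all 8 mice. Black rings mark genes whose genotypes did not overlap, which are Dll1, Nrarp and Dtx4. The 3 ligands and the other ligands all lie left of 0, while gamma-secretase subunits lie between −0.16 and 0.12.

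Promoter sequences were read from RefSeq (GRCm38.p6, 250 bases before to 50 bases from the annotated start) and searched on both strands for GTGGGAA, the consensus of RBPJ, and for its inner part TGGGAA, which every match of the longer motif also holds. Entries were found for 7 of the 10 genes, with none for Hes1, Hey1 and Heyl, and for 37 of the other 45. GTGGGAA was present in 6.38% of all 32851 promoters and TGGGAA in 25.6%. None of the 7 promoters of the receptors and ligands among the 10 genes held either. The other 37 genes had 49 promoters, of which 6 held GTGGGAA (12.2%), those of Hey2, Hes5, Lfng, Psen2, Aph1a and Spen, and 14 held TGGGAA (28.6%). Jag2 is shown as the gene of the 10 with the lowest log2 fold change, Nrarp as the target that was lowest, and Hey2 as a target with the motif, capitals marking GTGGGAA or its reverse complement:
Jag2 (chr12:112929446-112929745, minus strand): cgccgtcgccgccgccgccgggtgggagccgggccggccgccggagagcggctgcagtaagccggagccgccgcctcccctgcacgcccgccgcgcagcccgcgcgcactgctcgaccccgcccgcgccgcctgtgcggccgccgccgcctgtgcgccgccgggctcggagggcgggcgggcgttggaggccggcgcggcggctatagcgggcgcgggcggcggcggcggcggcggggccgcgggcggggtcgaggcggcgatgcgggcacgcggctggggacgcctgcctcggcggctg
Nrarp (chr2:25180508-25180807, plus strand): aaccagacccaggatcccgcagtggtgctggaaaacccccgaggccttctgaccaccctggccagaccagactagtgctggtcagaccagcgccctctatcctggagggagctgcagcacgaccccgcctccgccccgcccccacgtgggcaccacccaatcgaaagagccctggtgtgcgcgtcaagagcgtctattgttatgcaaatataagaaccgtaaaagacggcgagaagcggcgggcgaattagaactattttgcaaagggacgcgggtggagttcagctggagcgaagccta
Hey2 (chr10:30842734-30843033, minus strand): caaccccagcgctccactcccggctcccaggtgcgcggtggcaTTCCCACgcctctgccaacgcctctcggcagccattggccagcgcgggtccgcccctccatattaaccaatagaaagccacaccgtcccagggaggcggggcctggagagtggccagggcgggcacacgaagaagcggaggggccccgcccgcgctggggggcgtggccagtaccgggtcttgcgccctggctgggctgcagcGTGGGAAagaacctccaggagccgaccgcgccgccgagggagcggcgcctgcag
The Hey2 window held the motif once on each strand, and the windows of Jag2 and Nrarp did not hold these letters.

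Because a whole aorta was sequenced, levels of marker lists were read in the same libraries, as the mean log2 CPM of each list. The smooth muscle markers Acta2 (1416 to 6334 CPM over the 8 mice) and Myh11 (1884 to 8224 CPM), which define the arterial media, were abundant in every library. The endothelium list (14 genes such as Pecam1, Cdh5 and Kdr) was at 6.998 to 7.33 in ApoE-/- mice and 7.51 to 7.58 in WT mice, a difference of −0.44 (exact permutation test, two-sided, p = 0.0286, which is 0.0929 after Benjamini-Hochberg adjustment over 13 lists). In it 13 of 14 genes had a log2 fold change below 0, 0 were called by edgeR, and the summed level ran from 2525 to 3774 CPM in ApoE-/- and from 3703 to 4376 CPM in WT mice. The macrophage list (15 genes) was at 4.72 to 6.32 in ApoE-/- and 3.89 to 4.31 in WT mice, with all 15 genes above 0 and 2 called. It differed by 1.32 (exact permutation p = 0.0286, adjusted 0.0929). The contractile smooth muscle list (12 genes) overlapped, at 7.56 to 9.30 and 8.66 to 9.45 (difference −0.36, exact permutation p = 0.543, adjusted 0.642), with the lowest value in ApoE-/- replicate 1. The cardiomyocyte list (9 genes) was at 4.21 in ApoE-/- replicate 1, 2.09 to 2.33 in the other ApoE-/- mice and 4.96 to 6.07 in WT mice. Its difference was −2.79 (exact permutation p = 0.0286, adjusted 0.0929), with 9 of 9 genes below 0 and 0 called. The fibroblast list differed by 0.55 with all mice (exact permutation p = 0.143) and by 0.82 without that replicate (exact permutation p = 0.0286, adjusted 0.0619), when the genotypes did not overlap, and the pericyte list by −0.04 and 0.20. The B cell list differed by 1.28 (exact permutation p = 0.0286, adjusted 0.0929), the T cell list by 0.56 (p = 0.114, exact), the adipocyte list by −0.48 (p = 0.429, exact), the lymphatic endothelium list by −0.49 (p = 0.0857, exact), the mesothelium list by −0.94 (p = 0.286, exact) and the skeletal muscle list by 0.16 (p = 0.686, exact).

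Between genotypes the mean of Notch4 differed about as much as that of the endothelium list. The log2 CPM of Notch4 minus that of the list was −1.68 to −1.30 in ApoE-/- and −1.74 to −1.19 in WT mice, a difference of −0.01 where the unscaled log2 fold change was −0.44. From mouse to mouse Notch4 did not follow the list in WT mice. There the list had an SD of 0.03, and Notch4 minus the list an SD of 0.23. Notch1 was at 0.43 to 0.67 in ApoE-/- and 0.11 to 0.27 in WT mice on this scale, without overlap, but so were 37% of all genes in that direction. For Dll4 the difference relative to the list was 0.24 and for Jag2 −0.18, both with overlap. Dll1 (−0.33) and Nrarp (−0.38) overlapped on this scale too, and Dtx4 (1.31) did not, as for 37% of all genes in that direction. Relative to the contractile smooth muscle list Dtx4 did overlap, at −4.12 to −1.69 in ApoE-/- and −4.85 to −3.92 in WT mice. The part of the endothelial or smooth muscle share in these values was not tested.

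Notch2 and Heyl ranked the mice of each genotype as the contractile smooth muscle list did. The order ran from ApoE-/- replicate 1 up through replicates 4, 2 and 3, and from WT replicate 4 up through replicates 2, 1 and 3. In the list ApoE-/- replicates 2 and 3 were close, at 9.27 and 9.30. The pericyte list had the same order in ApoE-/- mice but not in WT mice. How many of all genes share this order was not counted. Relative to the contractile smooth muscle list, Notch2 was at −0.31 to 0.18 in ApoE-/- and −0.77 to −0.57 in WT mice, a log2 difference of 0.50 without overlap, as for 5.1% of all genes in that direction. Heyl was at −2.48 to −1.76 and −2.49 to −2.24, with overlap. Notch3, in contrast, did not keep the order of the list in ApoE-/- mice, where replicate 4 and not replicate 1 was lowest. The heat map of centred levels sets these genes and lists side by side, and the part of smooth muscle content was not tested.

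**Figure D5:**
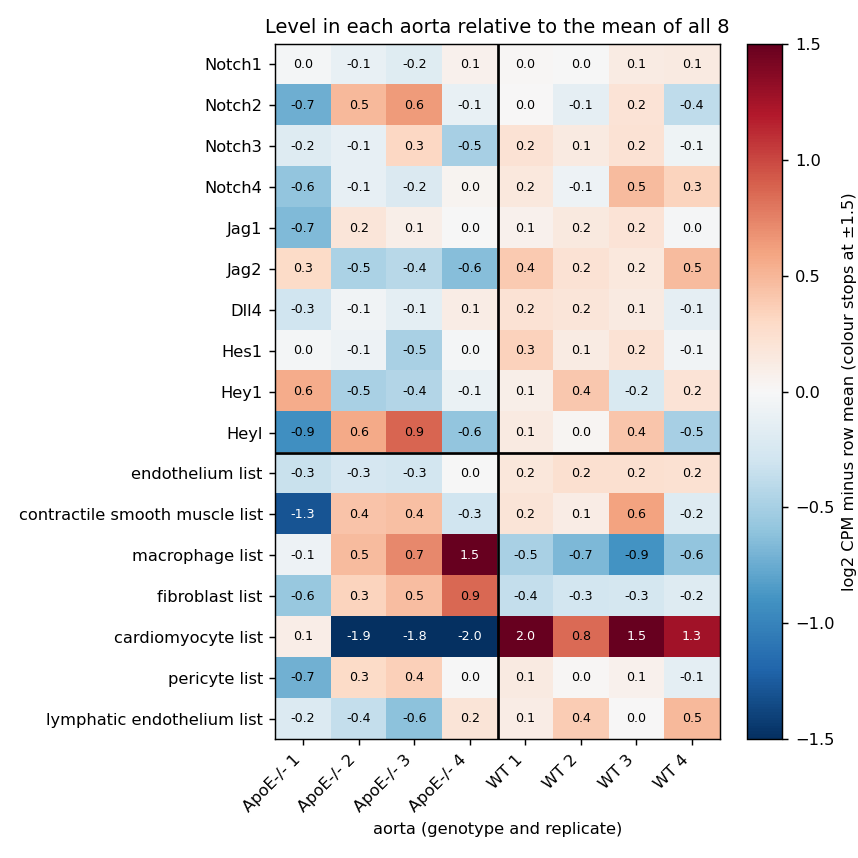
Level in each aorta minus the mean of all 8, on the log2 CPM scale, for the 10 genes (above the line) and the mean of 7 marker lists (below it). Columns are mice, red is above and blue below the mean, and colour stops at 1.5 in either direction. ApoE-/- replicate 1 is low for Notch2, Heyl and the contractile smooth muscle list and high for Jag2, Hey1 and the cardiomyocyte list relative to the other ApoE-/- mice.

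For each gene the 3 genes nearest in pattern were sought over the 8 mice, among 14198 genes with a mean of at least 1 CPM, by the root mean square difference of centred log2 CPM. Nearest to Jag2 were Pou6f1 (0.10), Irx3 (0.11) and Prox1 (0.11), where the log2 CPM of Jag2 itself had an SD of 0.44. Heyl was nearest to Plekhg3, Chst3 and Tgfb1i1 (0.10 to 0.11, SD of Heyl 0.62), Notch2 to Scarf2, Sec24d and Tmem63a (0.06 to 0.07, SD 0.45), and Hey1 to Tspan7, Kcnj2 and Itga6 (0.11 each, SD 0.38). Notch4 was nearest to Tinagl1, Myzap and Grap (0.11 to 0.12, SD 0.33), and Jag1 to Trip10, Arhgap10 and Ahnak (0.07 each, SD 0.28). The first neighbours of Notch1, Notch3, Dll4 and Hes1 were Tut1, Fbl, Prrg1 and Mrps6 (0.03 to 0.08, SD of the 4 Notch genes 0.11 to 0.27). None of the 45 other pathway genes was among these neighbours.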

How the data were processed

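Raw read pair counts per gene were used, as deposited, for 1 library per mouse. The authors made stranded, ribodepleted total RNA libraries (TruSeq, Ribo-Zero Gold) and deposited counts without normalization. The submitters' processing notes name TopHat2, HTSeq and GRCm38/mm10. Versions, settings and annotation are not given in the sources used here. Pairs on genes were 32.3% to 35.6% of all pairs in ApoE-/- and 27.9% to 30.2% in WT libraries, without overlap. All pairs overlapped, at 67231818 to 72143353 in ApoE-/- and 65355678 to 75627250 in WT libraries. Pairs without a gene were left out of library sizes. Positions and exon lengths came from GENCODE M21 (GRCm38), which holds 21817 of the identifiers and lacks 42.

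Counts were filtered with filterByExpr, scaled by TMM and tested with the quasi-likelihood F test of edgeR 4.0.16 (R 4.3.3, robust estimation, genotype as the only factor, two-sided), with Benjamini-Hochberg adjustment over all 15077 genes and a threshold of 0.05. The SE is the log2 fold change divided by the square root of F. Log2 CPM used a prior count of 2, and RPKM the union of exons. DESeq2 1.42.0, the tool the authors name, and limma-voom 3.58.1 were alternatives, with other scalings, filters and the omission of each mouse. Scripts were tested on simulated data.

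The 10 genes, the other lists and the tests were chosen with earlier results of these data known. Named beside the 10 were, per role, the 2 other genes with the smallest p, those DESeq2 called, those needed to complete a role, and the 3 nearest genes in pattern. Annotated same-strand genes overlap Notch1 (Mir6996), Notch2 (Gm42819, Gm42820) and Jag2 (Mir6941), and pairs there may have been left out as ambiguous. Both genotypes use the same replicate numbers, and the sources used here do not say whether these tie mice together. Of 13 marker lists, the level of 1 is not reported here. Intervals cover the spread between mice as fitted.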

Additional observations from a re-analysis of the deposited data

Results flagged for a closer look

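In 7 of 132 groups of 4 mice (the 52 tested genes of the pathway, the marker lists and the library totals, in each genotype) 1 mouse stood farther from the others than Dixon's 95% critical value allows, measured as its gap to the nearest mouse over the whole range. Chance flags about 1 group in 20, so 6.6 among 132. Hes1 in ApoE-/- replicate 3 had 11.2 CPM against 14.9 to 15.4 CPM in the other 3 (gap ratio 0.881). Lfng, a Fringe enzyme that modifies Notch receptors, had 39.6 CPM in ApoE-/- replicate 4 against 22.9 to 25.2 CPM (ratio 0.865). The cardiomyocyte list was at 4.21 in ApoE-/- replicate 1 against 2.09 to 2.33 log2 CPM in the other ApoE-/- mice (ratio 0.890). The skeletal muscle list was at 0.10 in WT replicate 3 against 0.96 to 1.11 log2 CPM (ratio 0.850). Of the other pathway genes, the ubiquitin ligase Dtx1 had 24.3 CPM in ApoE-/- replicate 1 against 7.19 to 7.87 CPM (ratio 0.960), the acetyltransferase Kat2a 37.0 CPM in the same mouse against 23.9 to 24.9 CPM (ratio 0.920), and the protease Furin 99.5 CPM in WT replicate 2 against 127 to 132 CPM (ratio 0.849).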

How the results depend on the processing

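The count of all genes called depended on the tool and on single mice: 70 in edgeR, 725 in DESeq2 (64.8% of them higher, against 80%), 29 in limma-voom and 2 with the replicate number as a block. Omitting 1 mouse gave 0 to 593 in edgeR and 445 to 1562 in DESeq2, the highest without ApoE-/- replicate 1. Of the 10 genes, 0 were called in every alternative but those without ApoE-/- replicate 1, so that the range over omitted mice was 0 to 1, with Jag2 as the 1. Of the 42 other genes, DESeq2 called 3, and omitting a mouse gave 0 to 3 in edgeR (3 without ApoE-/- replicate 1) and 2 to 4 in DESeq2. Dll1 was called in 7 of these 8 DESeq2 fits (not without WT replicate 3), Nrarp and Dtx4 in 8, and Lfng without ApoE-/- replicate 4. The fits of these 3 genes were added after the data were seen. Genes of the 10 without overlap numbered 1 (Hes1) with upper-quartile factors, where 4.09% of all genes were separate and lower, and 0 to 2 on omitting a mouse, where 4.09% to 7.44% were in the fits that separated any of the 10. The log2 fold change of Heyl changed sign to −0.038 in limma-voom and −0.032 with the replicate block, and ran from −0.22 to 0.35 in edgeR and from −0.23 to 0.35 in DESeq2 on omitting a mouse, below 0 without ApoE-/- replicate 2, ApoE-/- replicate 3 or WT replicate 4. Without ApoE-/- replicate 1 the contractile smooth muscle list turned from −0.36 to 0.013, and the pericyte list from −0.04 to 0.20. With the length of the longest transcript, Hes1 (12.0 RPKM in WT mice) passed Notch4 (10.7), and Hey1 (4.57) passed Dll4. The cause of these shifts was not tested. The deviations of same-numbered mice correlated at −0.45 to 0.32, above 0.1 for replicates 3 and 4 but not 1 and 2, and of the ApoE-/- mice only replicate 3 correlated best with the WT mouse of its own number. The numbers were therefore not used to pair mice, and the block changed no call among the 10 genes. Among the 10 genes depth limits Hey1 most, with as few as 155 read pairs in a library, and among the other tested genes of the pathway Dlk1, with as few as 13.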
